A study of Mus musculus with 15 samples.

Results

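The 50 genes described here are the mouse genes for matrix metalloproteinases (MMPs), ADAMTS proteases, ADAMTS-like proteins and tissue inhibitors of metalloproteinases (TIMPs). The rule for membership used gene symbol and a protein-coding annotation, in a count table of 54232 genes of which 21906 are protein-coding. The set itself was chosen with earlier results of these data known. The set holds 22 MMPs, 19 ADAMTS genes, 5 ADAMTS-like genes and 4 TIMPs. Mmp1a matches the symbol pattern but is annotated as a polymorphic pseudogene and was not counted.

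The genes were measured by bulk RNA sequencing of the dissected secondary palate of wild-type mice at 4 embryonic stages (E13.5, E14.5, E15.5 and E16.5, in days of development) and at birth (P0). Each of the 5 stages had 3 libraries, 15 in all, and 1 library pools the palates of 3 embryos, so the spread between replicates is a spread between pools. The labels name no treatment and no mutant allele for any group, and stage is the factor that separates the groups. Over these days the paired shelves of the palate grow, rise, fuse and form bone.

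MMPs are zinc-dependent proteases that are made as inactive proenzymes and, once activated, cut collagens and other components of the extracellular matrix. ADAMTS proteases are secreted relatives that cut large proteoglycans or trim procollagens, while ADAMTS-like proteins share their matrix-binding domains but lack the protease domain. TIMPs bind the active site of the proteases and block it. In bone-forming tissue MMP9 is known as a protease of osteoclasts, and MMP13 as a collagenase of osteoblasts and hypertrophic chondrocytes.

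Counts assigned to genes came to 58.2 to 69.02 M per library at E13.5 to E15.5, 37.1 to 52.3 M at E16.5 and 21.5 to 41.2 M at P0, so depth moved with stage. The palate genes Pax9 (23.8 to 94.2 CPM) and Osr2 (16.9 to 73.0 CPM) and the mesenchymal gene Prrx1 (84.9 to 453 CPM) were present in every library. CPM is counts scaled to a normalized library total of 1000000. Transcripts of the Y-linked gene Ddx3y lay at 0.0277 to 0.0647 CPM in the 3 libraries of E16.5, while the highest library of each other stage had 36.0 to 54.5 CPM, so the sex of the embryos also moved with stage. Sex differed within stages too, with Ddx3y at 0.201 CPM in E13.5 replicate 1, 0.152 in E15.5 replicate 1 and 0.152 in P0 replicate 2. E15.5 replicate 1 was also the lowest library of its stage for Mmp13 and Mmp9. The part of sex in the results was not tested. The limit of detection was set at 3 counts, which equals 0.0421 to 0.131 CPM and allows for counting error only.

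Of the 50 genes, 43 passed a filter on low counts and were tested. The 7 that did not pass were Mmp1b, which had no count in any library, and Mmp7, Mmp10, Mmp12, Mmp20, Mmp21 and Mmp27, whose highest count in any library was 12, for Mmp12. Among the genes that passed, 41 had more than 3 counts in all 15 libraries. Mmp8, Mmp3 and Adamts13 passed the filter only through stages after E14.5, where they were higher. From E13.5 or E14.5 only a rise could thus be called for them. Mmp13 passed the filter only through stages after E13.5, so from E13.5 only a rise could be called for it.

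Of the MMP genes, 9 lie side by side on chromosome 9 (chr9:7272514-7699585, GRCm38), an arrangement known from mammals in general. In order they are Mmp13, Mmp12, Mmp1b, Mmp3, Mmp10, Mmp8, Mmp27, Mmp20 and Mmp7, over 427 kb. The cluster brings together the collagenase with the largest rise among the 50 genes and most of the genes that were barely detected: 3 of the 9 were tested and 6 were not. The 120 bases before the RefSeq start of 5 of them (RefSeq, GRCm38.p6, all on the + strand) are given here, to set the start regions of the 3 tested genes (Mmp13, Mmp3, Mmp8) beside those of neighbours near the detection limit (Mmp10, Mmp7). Capitals mark matches to an AP-1 motif (TGANTCA), a RUNX motif (TGTGGT, or ACCACA when it lies on the other strand) and a TATA box (TATAAA).
Mmp13, chr9:7272394-7272513: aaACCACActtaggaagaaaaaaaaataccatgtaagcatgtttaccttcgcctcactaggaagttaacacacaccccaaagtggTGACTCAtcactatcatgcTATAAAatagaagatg
Mmp3, chr9:7445702-7445821: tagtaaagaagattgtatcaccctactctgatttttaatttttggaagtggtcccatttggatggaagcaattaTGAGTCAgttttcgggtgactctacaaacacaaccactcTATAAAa
Mmp8, chr9:7558309-7558428: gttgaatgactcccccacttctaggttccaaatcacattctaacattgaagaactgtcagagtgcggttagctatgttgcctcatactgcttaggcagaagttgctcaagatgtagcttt
Mmp10, chr9:7502222-7502341: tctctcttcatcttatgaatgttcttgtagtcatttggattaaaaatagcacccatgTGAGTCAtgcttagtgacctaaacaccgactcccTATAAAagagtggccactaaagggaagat
Mmp7, chr9:7691970-7692089: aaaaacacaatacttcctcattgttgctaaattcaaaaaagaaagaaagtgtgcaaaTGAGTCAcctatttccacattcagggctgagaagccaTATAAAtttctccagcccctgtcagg
In the Mmp13 sequence the AP-1 match begins at position -35 from the start and the TATA match at -16, with a RUNX match at -118. Mmp3, Mmp10 and Mmp7 have the same 2 elements in the same order, with AP-1 matches at -46, -63 and -63 and TATA matches at -7, -29 and -26. Mmp8 has no marked match in the stretch shown, and its RefSeq start lies 27 bases before the gene start of the count table. The bases after that start were not found in a GENCODE M21 transcript of Mmp8, as they were for the other 4 genes, so the stretch shown may not be its start region. Genes near the detection limit (Mmp10 and Mmp7) thus carry both matches, as do Mmp13 and Mmp3.

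Matches were counted on both strands in the RefSeq windows of 300 bases (250 before the start), which 35 of the 50 genes had. The 15 without a window include Mmp9, Mmp2, Mmp16, Mmp17 and Mmp19. The 35 genes had 38 windows, so the counts of genes below and the shares of windows differ in unit. The AP-1 motif was found in 7.81% of all 32851 windows. It was found in 7 of the 9 cluster genes (Mmp13, Mmp12, Mmp1b, Mmp3, Mmp10, Mmp20 and Mmp7) and in 0 of the 26 other members with a window. The TATA box was found in 13.6% of all windows, in 8 of the 9 cluster genes and in 3 of the 26 others (Adamts1, Adamtsl2 and Mmp21). Among the 8, the match of Mmp8 lies on the other strand at -3, and that of Mmp12 lies after the start, at 5. Neither has the place of a TATA box before a start. The RUNX motif, present in 16.8% of windows, was found in 4 of the 9 and in 2 of the 26. An ETS motif (AGGAAG), present in 35.4% of windows, was found in 6 of the 9 and in 8 of the 26. None of these motifs contains another, and a match is a run of letters, not a measured binding site.

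Over the 5 stages, 33 of the 43 tested genes changed (edgeR quasi-likelihood F test over all stages, adjusted p under 0.05), where 59.1% of all 22151 tested genes did. Of the 33, 16 had their highest mean at P0, 3 at E16.5, 7 at E15.5, 2 at E14.5 and 5 at E13.5. The 16 with a peak at P0 include all 4 TIMPs, both gelatinases and the collagenases Mmp13 and Mmp8. The 5 with a peak at E13.5 are Mmp11, Adamts6, Adamts7, Adamts17 and Adamts19. The 10 tested genes that did not pass over the stages were Mmp15, Mmp24, Mmp25, Mmp28, Adamts1, Adamts3, Adamts9, Adamts15, Adamts18 and Adamtsl2.

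**Figure D1:**
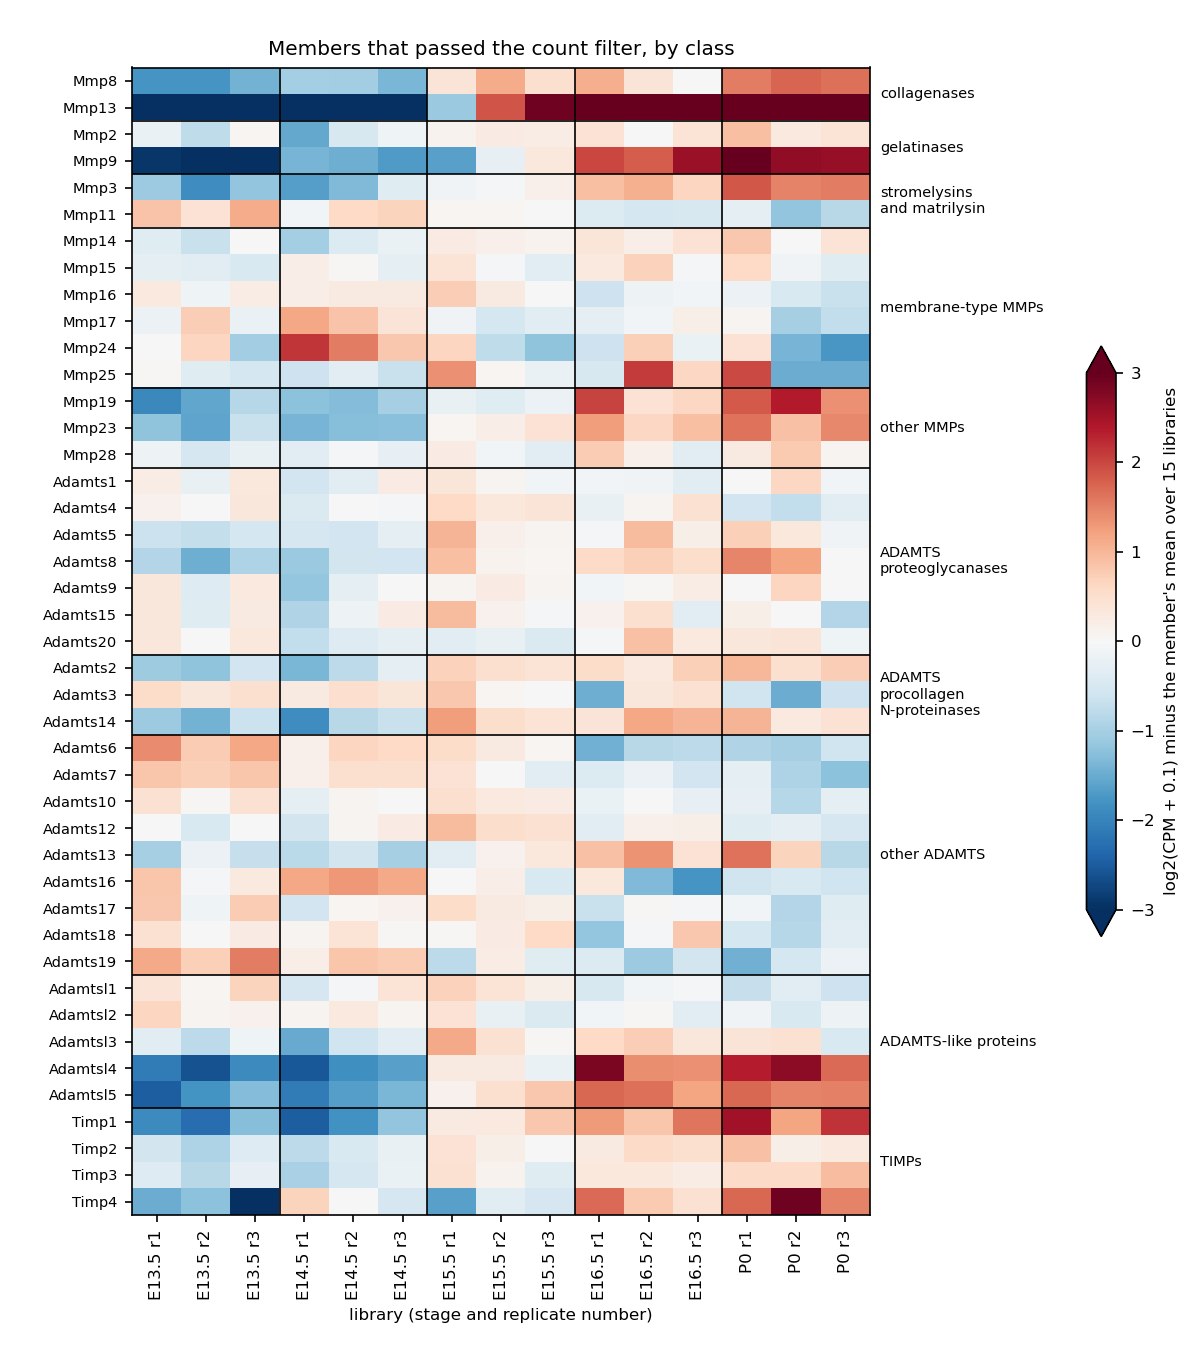
Level of each of the 43 tested genes (rows, grouped by class) in each of the 15 libraries (columns), as log2(CPM + 0.1) minus the mean of that gene over the libraries, red for above and blue for below the mean, with colours capped at 3. Mmp13 and Mmp9 run from blue at E13.5 to red at P0, and Adamts6, Adamts7 and Mmp11 run the other way.

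Between E13.5 and E14.5 none of the 43 genes passed (edgeR, adjusted p under 0.05), and 0.00903% of all tested genes did. At an unadjusted p under 0.05 there were 8, beside 16% of all tested genes, and DESeq2 called 1, Mmp9. The libraries of the 2 stages did not overlap for 7 members in the direction of a rise (15.5% of all genes) and for 4 in that of a fall (13.7%). The median log2 fold change of the tested members was -0.05, beside 0.02 over all tested genes.

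Among neighbouring stages, E14.5 and E15.5 differed in the most members. Of the 43 genes, 16 were higher and 1 was lower at E15.5 (edgeR, adjusted p under 0.05), where 12.7% of all tested genes were higher and 13.4% lower, 26.1% in all. The median log2 fold change of the tested members was 0.61, beside 0.03 over all genes. The libraries of the 2 stages did not overlap, with E15.5 higher, for 23 of the members, against 24.0% of all tested genes, and with E14.5 higher for 3, against 27.2%. At an unadjusted p under 0.05 there were 26, beside 39.7%. Of the 16 rises, 8 held whichever of the 6 libraries was left out: Mmp13, Mmp8, Mmp23, Timp1, Adamts2, Adamts14, Adamtsl4 and Adamtsl5. The count of 17 became 8 when E14.5 replicate 1 was left out, 9 when E14.5 replicate 2 was, and 10 when E15.5 replicate 2 was.

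From E15.5 to E16.5, Mmp9 and Adamtsl4 rose and Adamts6 fell (edgeR, adjusted p under 0.05), where 1.03% of all genes rose and 0.379% fell. The median log2 fold change of the members was 0.10, beside -0.00 over all genes. Either way 1.41% of all genes passed. At an unadjusted p under 0.05 there were 13 members, beside 21.8% of all genes. Libraries did not overlap for 11 members higher at E16.5 (15.7%) and 8 lower (15.5%). Leaving out E15.5 replicate 2, E15.5 replicate 3 or E16.5 replicate 1 left 0 calls, and leaving out E15.5 replicate 1 or E16.5 replicate 2 left 1.

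From E16.5 to P0 none of the 43 genes passed in edgeR, where 0.352% of all genes did, 0.19% as rises and 0.163% as falls. At an unadjusted p under 0.05 there were 2 members (Mmp8 and Adamts4), beside 11.7% of all genes, and DESeq2 called 1 (Adamts4). Libraries did not overlap for 6 members higher at P0 (6.23% of all genes) and 1 lower (5.39%). Consecutive comparisons share the libraries of the stage between them, so their calls are not independent of each other.

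From E13.5 to P0, 20 of the 43 genes rose and 10 fell (edgeR, adjusted p under 0.05), where 29.8% of all tested genes rose and 26.8% fell, 56.6% in all. At an unadjusted p under 0.05 there were 33, beside 61.7%. Libraries did not overlap for 19 members higher at P0 (30.2% of all genes) and 12 lower (28.9%). The median log2 fold change of the tested members was 0.58, beside 0.03 over all genes. Among the rises 16 were at least 2-fold, and among the falls 5. The 15 rises and 7 falls that held whichever library of these stages was left out include Mmp13, Mmp9, Mmp8, Mmp3 and all 4 TIMPs on one side, and Mmp11, Adamts6, Adamts7 and Adamts19 on the other. Of these, Mmp13, Mmp8 and Mmp3 entered the test only through stages after E13.5, so only a rise could be called for them.

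**Figure D2:**
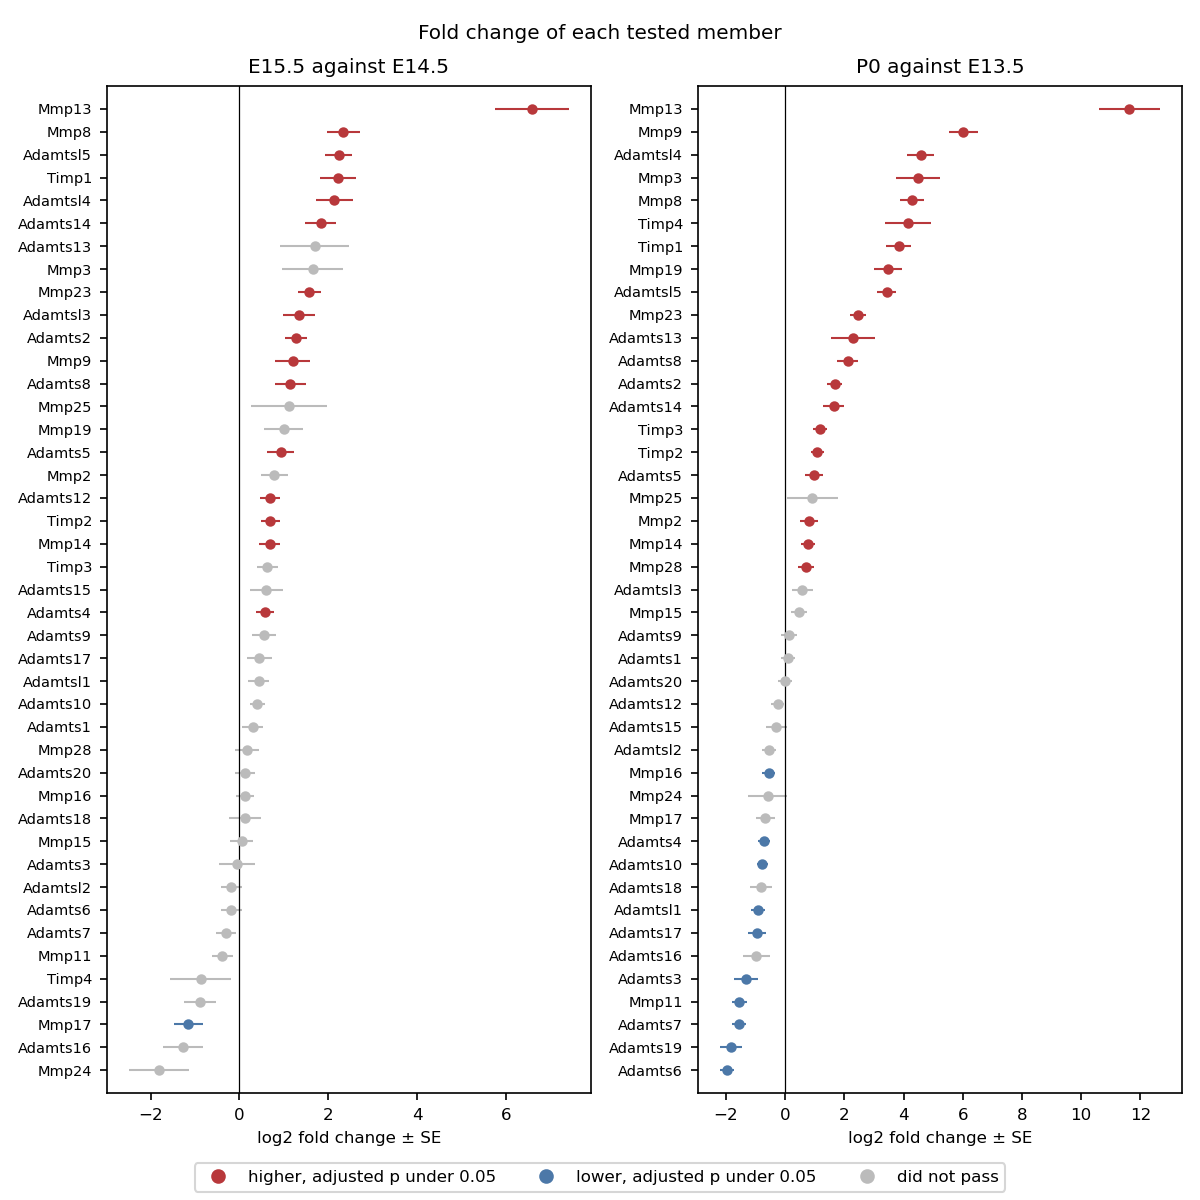
Log2 fold change with its standard error for each of the 43 tested genes, from E14.5 to E15.5 (left) and from E13.5 to P0 (right), red where higher and blue where lower at the later stage with an adjusted p under 0.05, grey otherwise. Mmp13 has the largest value in both panels, 6.59 and 11.63.

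The collagenases cut fibrillar collagen across its triple helix. Mmp13 (chr9:7272514-7283331) had 0.143, 0.155 and 0.0743 CPM at E13.5, from 10, 11 and 5 counts. It had 0.467, 0.621 and 0.323 CPM at E14.5 and 5.33, 43.1 and 87.5 CPM at E15.5. At E16.5 it had 150, 116 and 241 CPM and at P0 459, 388 and 362 CPM. No library of a stage overlapped those of the stage before it, from one end of the series to the other. Within E15.5 the libraries differed widely, with replicate 1 far below replicates 2 and 3. The rise from E14.5 to E15.5 was 6.59 ± 0.83 on the log2 scale (± SE, edgeR adjusted p = 0.000548), and that from E13.5 to P0 was 11.63 ± 1.03 (adjusted p = 5.67e-06). Because E13.5 rests on so few counts, the fitted fold of 3172 for the whole span is imprecise. The ratio of the plain stage means was 3243. Mmp13 passed the filter on low counts only through stages after E13.5. From E15.5 to E16.5 its value on the log2 scale was 1.90 ± 0.65 and did not pass (edgeR adjusted p = 0.127).

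The summed CPM of 9 osteoblast and osteocyte markers, among them Col1a1, Ibsp and Bglap, was 1292 to 1977 at E13.5, 1027 to 2214 at E14.5 and 14194 to 16443 at E15.5. It was 15044 to 21139 at E16.5 and 18274 to 35310 at P0. Col1a1 made up 80.7% to 93.1% of this sum in every library, so the sum mostly follows that gene. The 8 other markers together had 1755 to 2655 CPM at E15.5, and some of them spread more widely within that stage. Bglap, the gene for osteocalcin, had 1.01, 2.49 and 5.80 CPM there, in the same order of libraries as Mmp13. Spp1, the gene for osteopontin, had 185, 308 and 446 CPM there, again in that order.

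Col10a1, a collagen of hypertrophic chondrocytes, also moved with Mmp13. It had 0.197 to 0.309 CPM at E14.5, 1.85, 3.58 and 4.30 at E15.5, 8.41 to 41.1 at E16.5 and 16.2 to 71.9 at P0. Col10a1 rose by 3.67 on the log2 scale from E14.5 to E15.5 (edgeR adjusted p = 0.00353), and its E15.5 libraries had the order of Mmp13, while its E16.5 libraries did not. The chondrocyte list of 9 genes that holds Col10a1 did not rise as a whole. Its median log2 fold change was -0.90 from E14.5 to E15.5, with 1 gene called higher and 0 lower, beside 12.7% and 13.4% of all tested genes. From E13.5 to P0 the median was -1.80, with 1 called higher and 3 lower, beside 29.8% and 26.8% of all tested genes. The osteoclast sum given with Mmp9 put the libraries of E15.5 and those of E16.5 in the same order as Mmp13. The osteoblast and osteocyte sum did so at E16.5 but not at E15.5. Its 8 markers other than Col1a1 together did so at E15.5 but not at E16.5. The E15.5 order was shared by lists of other cell types. Stratified epithelium markers had sums of 380, 957 and 1763 CPM there, and neutrophil markers 16.9, 25.1 and 30.8 CPM. The sum of ameloblast and odontoblast markers had that order too, and none of the remaining marker sums did. At E16.5 these 3 sums did not have the order of Mmp13. At P0 none of these sums had the order of Mmp13. In bulk tissue, more cells of a type and more RNA per cell cannot be told apart. The parts of osteoblasts, hypertrophic chondrocytes and osteoclasts in the rise of Mmp13 were not tested.

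Mmp8, the neutrophil collagenase, was low throughout. It had 0.0717, 0.0704 and 0.119 CPM at E13.5, 0.187, 0.182 and 0.126 at E14.5 and 0.657, 1.16 and 0.709 at E15.5. It had 1.14, 0.664 and 0.489 CPM at E16.5 and 1.58, 1.86 and 1.74 at P0. Mmp8 rose by 2.34 ± 0.37 on the log2 scale from E14.5 to E15.5 (edgeR adjusted p = 0.00154) and by 4.28 ± 0.40 from E13.5 to P0 (adjusted p = 7.55e-06), with no overlap of libraries in either. It had 5 to 12 counts per library at E13.5 and E14.5 and passed the filter on low counts only through later stages. With a filter on a mean of at least 1 CPM, Mmp8 left the test. The summed CPM of 8 genes taken as neutrophil markers also moved with stage. It was 3.70 to 9.97 at E13.5, 3.10 to 10.1 at E14.5 and 16.9 to 30.8 at E15.5. At E16.5 it was 57.4 to 162 and at P0 99.3 to 272. Ltf, the gene for lactoferrin, made up 85.4% to 87.1% of that sum at E16.5 and 76.0% to 89.1% at P0. The 7 other markers together had 7.96 to 19.05 CPM at E15.5, 7.39 to 22.4 at E16.5 and 23.8 to 36.9 at P0. From E15.5 to E16.5 the median log2 fold change of the 7 tested markers was -0.50, beside -0.00 over all genes, and only Ltf passed (2.97, edgeR adjusted p = 0.0316). Elane and Mcpt8 were below 3 counts in at least 1 library at 3 of the 5 stages each. Mcpt8, the gene for mast cell protease 8, added at most 0.225 CPM to the sum in any library. The part of neutrophils in these values was not tested. The third collagenase, Mmp1b, had no count.

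The gelatinases cut denatured collagen and basement membrane collagen. Mmp9 (chr2:164940780-164955850) had 14.7, 13.6 and 12.6 CPM at E13.5, 42.1, 40.5 and 34.4 at E14.5 and 35.9, 94.2 and 138 at E15.5. It had 450, 396 and 673 CPM at E16.5 and 1282, 700.5 and 681 at P0. Mmp9 was thus close to equal within each of the first 2 stages, and of the neighbouring stages only E14.5 and E15.5 overlapped. It rose by 1.20 ± 0.39 on the log2 scale from E14.5 to E15.5 (edgeR adjusted p = 0.0403), by 2.50 ± 0.41 from E15.5 to E16.5 (adjusted p = 0.0230) and by 6.02 ± 0.48 from E13.5 to P0 (adjusted p = 3.74e-06). The first of these calls held in 1 of 6 fits without 1 library, and the adjusted p reached 0.202 without E15.5 replicate 3. The second held in 3 of 6, with an adjusted p of up to 0.133 without E15.5 replicate 2.

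Osteoclast markers (8 genes, among them Acp5, Ctsk and Ocstamp) had a summed CPM of 48.5 to 77.2 at E13.5 and of 38.2 to 77.2 at E14.5, and 152.7 to 321.7 at E15.5. The sum was 866 to 1555 at E16.5 and 1568 to 3126 at P0. All 8 genes had at least 3 counts in every library from E14.5 on, and at E13.5 Atp6v0d2 and Dcstamp did not. Within E15.5 and within E16.5, Mmp9 and the osteoclast sum ordered the libraries alike, and the P0 library with the highest Mmp9 (replicate 1) also had the highest sum. Within E13.5 and within E14.5 the orders differed. The order of Mmp9 at E15.5 was also that of the neutrophil, stratified epithelium, and ameloblast and odontoblast sums. Its order at E16.5 was also that of the osteoblast and osteocyte sum. Every E14.5 library had more Mmp9 than every E13.5 library, a difference of 1.51 ± 0.40 on the log2 scale that did not pass in edgeR (adjusted p = 0.137, unadjusted p = 0.00226). The ranges of the osteoclast sum overlapped at these stages, where Ctsk and Nfatc1 make up most of it, and those genes had -0.03 and -0.60. Other markers of the list had higher values, among them 2.26 for Dcstamp (0, 1 and 4 counts at E13.5), 1.82 for Calcr and 1.68 for Atp6v0d2. The median of the 8 was 0.46, with 3 at an unadjusted p under 0.05 and 0 passing in edgeR. The part of osteoclasts in the Mmp9 values was not tested.

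**Figure D3:**
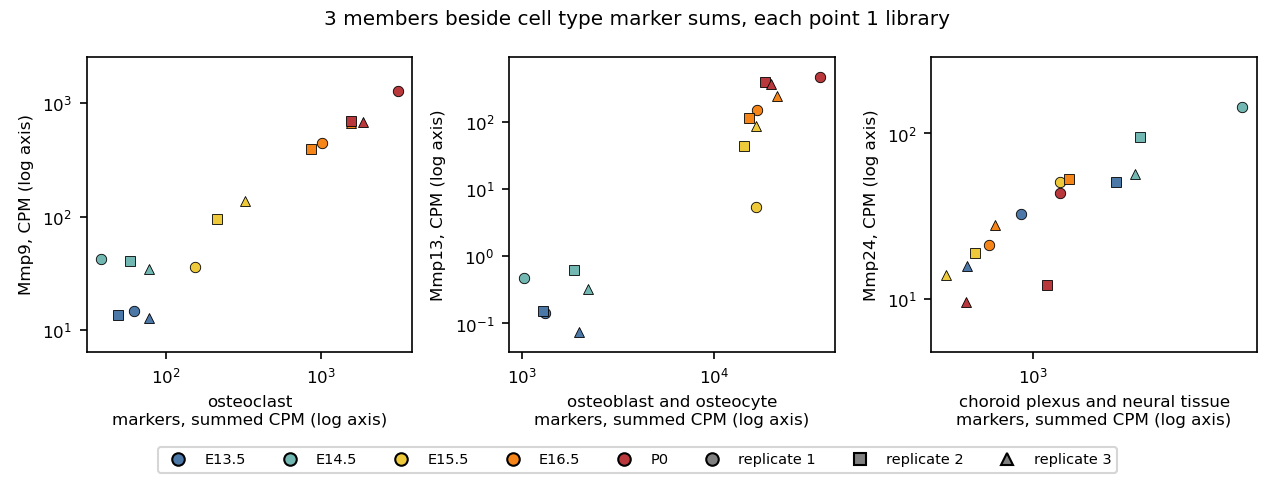
CPM of Mmp9, Mmp13 and Mmp24 (vertical) against the summed CPM of osteoclast markers, of osteoblast and osteocyte markers, and of choroid plexus and neural markers (horizontal), on log axes, with 1 point per library, colour for stage and shape for replicate number. The E14.5 points lie above the E13.5 points for Mmp9 at overlapping osteoclast sums, and the 3 E15.5 points for Mmp13 run from 5.33 to 87.5 CPM at osteoblast sums of 14194 to 16443, which are mostly Col1a1.

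Mmp2 (chr8:92827291-92853420), the gelatinase of mesenchymal cells, had the highest mean level per length of the 50 genes, 119 CPM per kb of exon over all libraries. In CPM it ranged from 222 to 391 at E13.5, 130 to 344 at E14.5, 406 to 443 at E15.5, with 378 to 505 at E16.5 and then 459 to 696 at P0. It rose by 0.82 ± 0.30 on the log2 scale from E13.5 to P0 (edgeR adjusted p = 0.0361), with every P0 library above every E13.5 library. This call held in 3 of 6 fits without 1 library, and the adjusted p was 0.141 without E13.5 replicate 2. The level per length of the pair changed order: at E13.5 Mmp2 made up 42.6% of the summed MMP level and Mmp9 1.84%, and at P0 these shares were 22.9% and 34.3%.

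The stromelysins encoded by Mmp3 and Mmp10 cut proteoglycans and other non-collagen matrix proteins. Mmp11 (chr10:75923222-75936496), stromelysin-3, had 84.6, 62.7 and 101 CPM at E13.5, 44.0, 71.2 and 74.0 at E14.5 and 48.8, 49.0 and 46.9 at E15.5. It had 35.2, 32.4 and 33.4 CPM at E16.5 and 38.5, 20.6 and 26.1 at P0. The E13.5 libraries were all above the P0 libraries, and Mmp11 fell by 1.54 ± 0.25 on the log2 scale over that span (edgeR adjusted p = 0.000228). No step between neighbouring stages passed for it.

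Mmp3, stromelysin-1, moved the opposite way from a very low level. It had 0.0717, 0 and 0.0594 CPM at E13.5 and 1.22, 0.915 and 0.958 at P0, and its libraries in between lay at 0.0156 to 0.664 CPM. The rise from E13.5 to P0 was 4.50 ± 0.74 on the log2 scale (edgeR adjusted p = 0.000299), with E13.5 at 5, 0 and 4 counts. Mmp3 also passed the filter on low counts only through later stages, and left the test with a filter on a mean of at least 1 CPM. Mmp7 and Mmp10 reached no more than 6 and 5 counts in any library and did not pass the filter on low counts. Without that filter both were also called higher at P0 than at E13.5, Mmp7 from 0, 0 and 1 counts to 2, 6 and 3, and Mmp10 from 0 counts in each library to 3, 5 and 1.

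The membrane-type MMPs are anchored at the cell surface. Mmp14 (chr14:54431612-54445364), the membrane enzyme that activates pro-MMP2, had 304, 247 and 387 CPM at E13.5, 192, 293 and 340 at E14.5 and 469, 433 and 423 at E15.5. At E16.5 it had 502, 451 and 531 CPM and at P0 685, 391 and 523. All libraries from E15.5 on were above all earlier ones. Mmp14 rose by 0.68 ± 0.23 on the log2 scale from E14.5 to E15.5 (edgeR adjusted p = 0.0487) and by 0.77 ± 0.24 from E13.5 to P0 (adjusted p = 0.0141). The first call held in 1 of 6 fits without 1 library and the second in 4 of 6, with adjusted p of 0.200 without E14.5 replicate 1 and 0.0663 without E13.5 replicate 2.

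Mmp17 was the only member called lower from E14.5 to E15.5. It had 11.6, 22.1 and 11.4 CPM at E13.5, 29.4, 23.9 and 17.3 at E14.5 and 12.2, 9.08 and 10.4 at E15.5, and lay at 6.56 to 14.8 CPM later. All E14.5 libraries were above all E15.5 libraries, with a fall of 1.16 ± 0.33 on the log2 scale (edgeR adjusted p = 0.0225). The call held in 2 of 6 fits without 1 library, and the adjusted p was 0.102 without E14.5 replicate 1.

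Mmp24, a membrane-type MMP known from the nervous system, was also highest at E14.5, with 145, 94.9 and 56.8 CPM, against 32.7, 51.2 and 15.8 at E13.5 and 50.9, 19.1 and 14.1 at E15.5. Its E14.5 libraries lay above all others in the series. Its difference from E14.5 to E15.5, -1.82 ± 0.68 on the log2 scale, did not pass (edgeR adjusted p = 0.0645), but it passed with DESeq2, with the replicate number as a block and without E15.5 replicate 1. The summed CPM of 8 choroid plexus and neural markers was 1981 to 4081 at E14.5 and 558 to 1751 in the libraries of the other stages. Mmp24 and that sum put the 3 libraries in the same order within each of the 5 stages. E14.5 replicate 1 was highest for Mmp24, for Mmp17 and for that sum, and the part of neural tissue in these 2 genes was not tested. Of the other membrane-type genes, Mmp16 fell by 0.56 ± 0.21 on the log2 scale from E13.5 to P0 (adjusted p = 0.0333, passing in 2 of 6 fits without 1 library, with 0.124 without P0 replicate 3). Mmp15 did not pass in any comparison, and nor did Mmp25, which ranged from 1.92 to 22.1 CPM among the 3 libraries of P0.

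Among the other MMPs the highest level per length was that of Mmp23, an MMP with an unusual carboxy-terminal domain, at 6.33 CPM per kb. It had 4.89, 3.70 and 7.09 CPM at E13.5, 4.22, 4.60 and 4.68 at E14.5 and 11.8, 13.1 and 15.3 at E15.5. It had 27.0, 17.4 and 21.2 CPM at E16.5 and 35.1, 20.8 and 31.1 at P0. The levels of the first 2 stages overlapped, and each later stage to E16.5 was above the one before it. Mmp23 rose by 1.58 ± 0.26 on the log2 scale from E14.5 to E15.5 (edgeR adjusted p = 0.00209) and by 2.47 ± 0.27 from E13.5 to P0 (adjusted p = 1.74e-05). Mmp19 rose by 3.47 ± 0.47 from E13.5 to P0 (adjusted p = 7.29e-05), from 0.444 to 1.04 CPM up to 5.22 to 10.7 CPM. Mmp28 rose by 0.71 ± 0.27 over the same span (adjusted p = 0.0393), in 2 of 6 fits without 1 library and with 0.158 without P0 replicate 2. Mmp12, Mmp20, Mmp21 and Mmp27 were not tested.

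**Figure D4:**
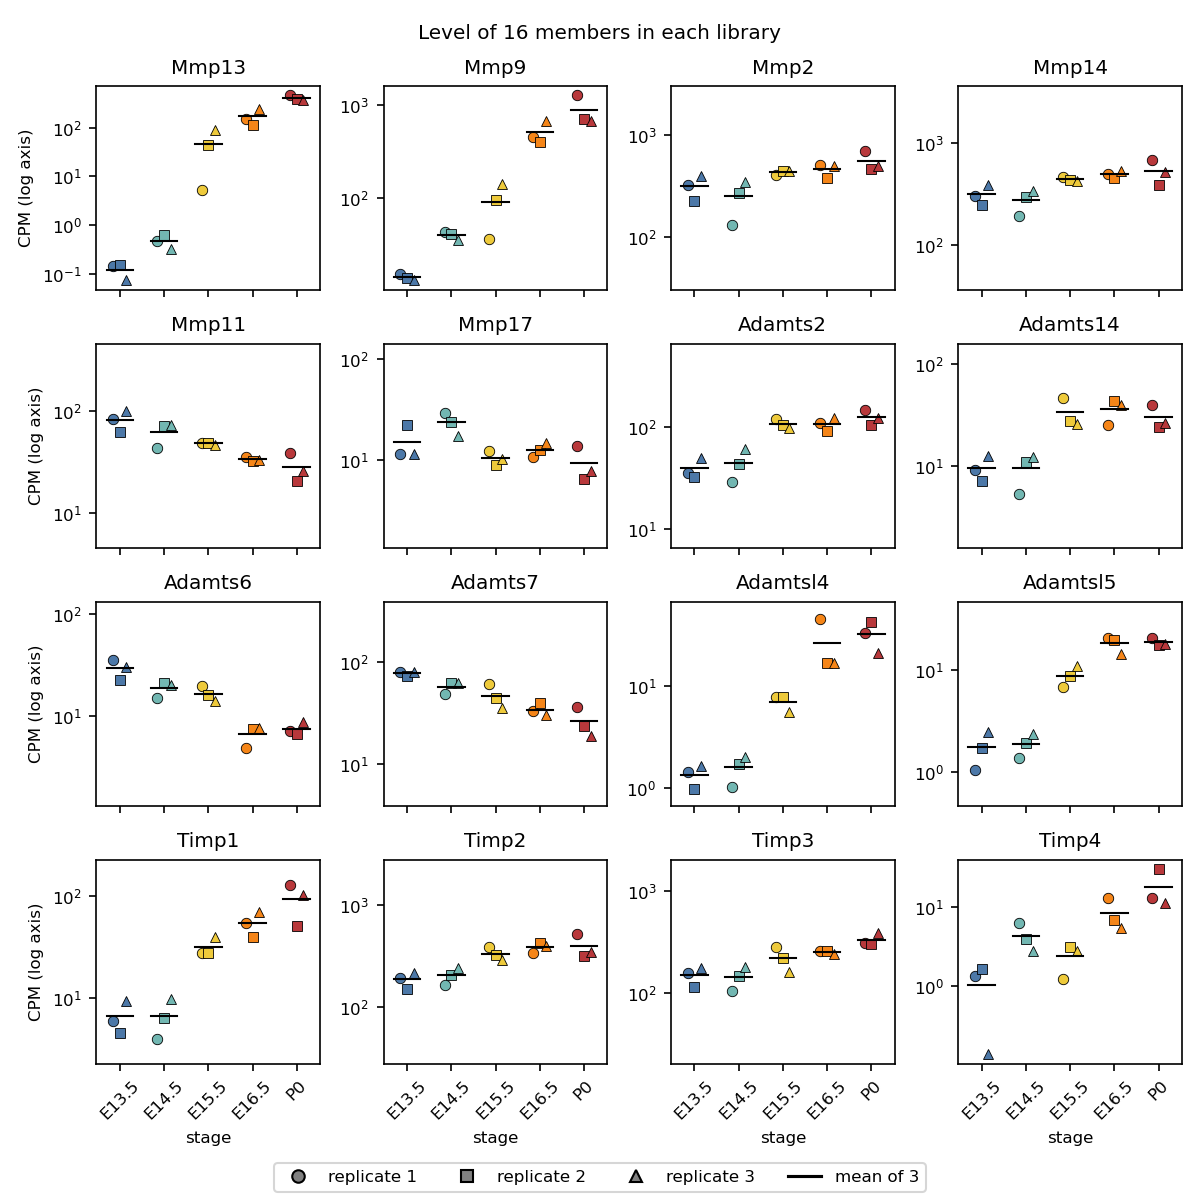
CPM of 16 of the genes in each library on log axes (each panel spans at least 100-fold), with points by stage and replicate number and a bar at the mean of the 3 libraries. Adamts14, Adamtsl4, Adamtsl5 and Timp1 step up between E14.5 and E15.5, and Mmp17 steps down there.

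The procollagen N-proteinases remove the amino-terminal propeptide from fibrillar procollagens. Adamts2 (chr11:50602084-50807573) had the highest level per length of the 3, 9.15 CPM per kb. It had 35.9, 32.7 and 50.1 CPM at E13.5, 29.0, 43.7 and 61.1 at E14.5 and 121, 105 and 99.2 at E15.5. It had 110, 91.6 and 124 CPM at E16.5 and 149, 104 and 125 at P0. Every library from E15.5 on was above every earlier one. The rise from E14.5 to E15.5 was 1.28 ± 0.25 on the log2 scale (edgeR adjusted p = 0.00431) and that from E13.5 to P0 1.67 ± 0.25 (adjusted p = 0.000156).

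Adamts14 (chr10:61197112-61273438) had 9.14, 7.16 and 12.4 CPM at E13.5, 5.30, 10.9 and 12.2 at E14.5 and 46.8, 27.8 and 26.1 at E15.5, and 23.8 to 43.5 CPM later. It too separated the first 2 stages from the last 3 without overlap. It rose by 1.83 ± 0.36 on the log2 scale from E14.5 to E15.5 (edgeR adjusted p = 0.00453) and by 1.64 ± 0.36 from E13.5 to P0 (adjusted p = 0.00195). The substrate genes Col1a1 (3.18 on the log2 scale) and Col1a2 (2.49) and Pcolce (2.15), which encodes an enhancer of the carboxy-terminal proteinase, rose at the same step (adjusted p = 0.000254, 0.000759 and 0.00134).

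Adamts3, the third N-proteinase, went the other way. It had 17.5, 14.96 and 16.7 CPM at E13.5 and 7.85, 4.18 and 7.66 at P0, with 4.23 to 20.8 CPM in between. From E13.5 to P0 it fell by 1.32 ± 0.41 on the log2 scale without overlap (edgeR adjusted p = 0.0160). It did not pass in the test over all stages, and the P0 call was lost without P0 replicate 2 (adjusted p = 0.0673).

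The ADAMTS proteoglycanases cut aggrecan, versican and related proteoglycans. Adamts1 had the highest level per length in this class, 12.6 CPM per kb. It ranged from 43.5 to 101 CPM over all libraries, the stages overlapped, and it did not pass over the stages (edgeR adjusted p = 0.388). Adamts9 and Adamts15 did not pass either, and Adamts20 passed over the stages (adjusted p = 0.0198) but in none of the 5 comparisons between them. Adamts8 rose by 1.15 ± 0.35 on the log2 scale from E14.5 to E15.5 (adjusted p = 0.0287) and by 2.11 ± 0.35 from E13.5 to P0 (adjusted p = 0.000337), from 3.27 to 4.90 CPM at E13.5 up to 9.23 to 25.6 CPM at P0. Adamts5 rose by 0.93 ± 0.30 and 0.98 ± 0.30 in the same comparisons (adjusted p = 0.0371 and 0.0141). Adamts4 rose by 0.58 ± 0.19 from E14.5 to E15.5 (adjusted p = 0.0425), was highest there at 25.4 to 31.1 CPM, and fell by 0.71 ± 0.19 from E13.5 to P0 (adjusted p = 0.00748). In the first step the Adamts4 call was lost in each of the 6 fits without 1 library (up to 0.185 without E14.5 replicate 1), the Adamts5 call in 5 (up to 0.160 without E15.5 replicate 1) and the Adamts8 call in 3 (up to 0.128 without E14.5 replicate 1). Of the substrates, Vcan fell by 1.61 on the log2 scale from E13.5 to P0 (adjusted p = 0.00128) and Acan had -0.22 (adjusted p = 0.788).

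Of the 9 other ADAMTS genes, 5 fell from E13.5 to P0, where 26.8% of all tested genes fell. The 5 include the largest fall of the set. Adamts6 (chr13:104287835-104496695) had 35.9, 22.7 and 30.1 CPM at E13.5, 15.1, 21.2 and 20.3 at E14.5 and 19.7, 16.1 and 14.1 at E15.5. It had 4.86, 7.50 and 7.71 CPM at E16.5 and 7.13, 6.68 and 8.84 at P0. All libraries up to E15.5 were above all later ones. Adamts6, whose product acts on fibrillin microfibrils, fell by 1.97 ± 0.24 on the log2 scale from E13.5 to P0 (edgeR adjusted p = 3.69e-05) and by 1.32 ± 0.24 from E15.5 to E16.5 (adjusted p = 0.0284). The second call held in 1 of 6 fits without 1 library, with 0.134 without E15.5 replicate 2.

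Adamts19 had 10.99, 8.20 and 14.5 CPM at E13.5 and 1.78, 3.41 and 4.40 at P0, with 2.27 to 8.96 CPM in between. It fell by 1.82 ± 0.38 on the log2 scale (edgeR adjusted p = 0.00138). Adamts7, which cuts cartilage oligomeric matrix protein, had 79.0, 72.7 and 79.2 CPM at E13.5 and 36.3, 23.3 and 18.9 at P0, and 29.9 to 61.5 CPM in between. It fell by 1.56 ± 0.24 (adjusted p = 0.000173). For both genes E13.5 was above every other stage or touched E14.5 alone, and no step between neighbouring stages passed. Comp, the gene for that substrate, rose by 4.28 over the same span (adjusted p = 0.00199).

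Adamts10 had the highest level per length among these genes, 23.1 CPM per kb. It had 169, 126 and 169 CPM at E13.5 and 104, 67.5 and 101 at P0, and fell by 0.77 ± 0.17 on the log2 scale (edgeR adjusted p = 0.00254). Adamts17 fell by 0.95 ± 0.29 (adjusted p = 0.0140), although its 2 stages overlapped and the call was lost in 2 of 6 fits without 1 library (up to 0.0657 without P0 replicate 2). Adamts12 rose by 0.70 ± 0.22 from E14.5 to E15.5 (adjusted p = 0.0356), and this held in 1 of 6 fits (up to 0.154 without E14.5 replicate 1). Adamts13, the von Willebrand factor protease, rose by 2.29 ± 0.74 from E13.5 to P0 (adjusted p = 0.0183), but from 0.0287 to 0.127 CPM to 0.0435 to 0.693 CPM with overlap, and the adjusted p was 0.155 without P0 replicate 1. Adamts16 changed over the stages (adjusted p = 0.0108), with 9.55 to 10.7 CPM at E14.5 and 1.17 to 7.67 CPM elsewhere, but passed in none of the 5 comparisons between stages. From E14.5 to E15.5 Adamts16 passed with DESeq2, with the replicate block and with only the 6 libraries of these stages. Adamts18 did not pass in any test of the 15 libraries.

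The ADAMTS-like proteins bind fibrillin and other matrix proteins. Adamtsl4 (chr3:95676201-95687917) had 1.42, 0.972 and 1.65 CPM at E13.5, 1.03, 1.73 and 2.02 at E14.5 and 7.79, 7.77 and 5.55 at E15.5. It had 45.9, 16.96 and 16.7 CPM at E16.5 and 33.1, 42.2 and 21.03 at P0. The first 2 stages overlapped, E15.5 stood apart from both sides, and E16.5 replicate 1 was far above the other 2 libraries of its stage. Adamtsl4 rose by 2.14 ± 0.43 on the log2 scale from E14.5 to E15.5 (edgeR adjusted p = 0.00475), by 1.92 ± 0.42 from E15.5 to E16.5 (adjusted p = 0.0482) and by 4.57 ± 0.47 from E13.5 to P0 (adjusted p = 1.26e-05). The middle call held in 1 of 6 fits without 1 library and was 0.197 without E16.5 replicate 1.

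Adamtsl5 (chr10:80339110-80348412) had 1.05, 1.73 and 2.45 CPM at E13.5, 1.37, 1.91 and 2.36 at E14.5 and 6.86, 8.69 and 10.98 at E15.5. It had 20.8, 19.6 and 14.4 CPM at E16.5 and 20.6, 17.7 and 17.9 at P0. The levels of the first 2 stages overlapped, as did those of the last 2, with E15.5 between them. It rose by 2.23 ± 0.31 on the log2 scale from E14.5 to E15.5 (edgeR adjusted p = 0.000895) and by 3.43 ± 0.32 from E13.5 to P0 (adjusted p = 8.27e-06). Adamtsl3 rose by 1.35 ± 0.36 from E14.5 to E15.5 (adjusted p = 0.0172), in 4 of 6 fits without 1 library and with 0.0788 without E14.5 replicate 1. Adamtsl1 fell by 0.92 ± 0.24 from E13.5 to P0 (adjusted p = 0.00531), and Adamtsl2 did not pass. Adamtsl1 overlaps Sh3gl2 on the same strand, so fragments in any shared exons could not be assigned to it. The same holds for Timp2 with Cep295nl (10141 bases), Adamts17 with Gm17909 and Adamtsl3 with Gm44919. These are overlaps of whole gene spans, and overlap of exons was not measured.

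The make-up of the ADAMTS-like group differed between the ends of the series. Per length, Adamtsl1 held 48.1% of the group's summed level at E13.5 and 10.6% at P0, while Adamtsl4 held 4.79% and 46.4%.

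All 4 TIMPs were higher at P0 than at E13.5, where 29.8% of all tested genes were higher. Timp1 (chrX:20870166-20874735) had 5.96, 4.61 and 9.33 CPM at E13.5, 4.003, 6.42 and 9.87 at E14.5 and 27.6, 27.9 and 39.8 at E15.5. It had 55.1, 40.4 and 69.7 CPM at E16.5 and 130.0, 51.4 and 103 at P0. The first 2 stages overlapped and lay below all later libraries. Timp1 rose by 2.23 ± 0.40 on the log2 scale from E14.5 to E15.5 (edgeR adjusted p = 0.00317) and by 3.84 ± 0.43 from E13.5 to P0 (adjusted p = 2.25e-05).

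Timp2 (chr11:118301069-118355740) had the highest level per length of the TIMPs, 76.8 CPM per kb. It had 194, 148 and 215 CPM at E13.5, 163, 206 and 242 at E14.5 and 383, 319 and 285 at E15.5. It had 339, 420.4 and 395 CPM at E16.5 and 517, 317 and 345 at P0. As for Timp1, the first 2 stages lay below all later libraries. Timp2, which besides inhibition takes part in the activation of pro-MMP2 by MMP14, rose by 0.69 ± 0.21 on the log2 scale from E14.5 to E15.5 (edgeR adjusted p = 0.0318) and by 1.08 ± 0.22 from E13.5 to P0 (adjusted p = 0.00107). The first call held in 2 of 6 fits without 1 library, with 0.146 without E14.5 replicate 1.

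Timp3 (chr10:86300372-86349506), the TIMP that binds to the matrix and also inhibits ADAMTS proteases, had 156, 114 and 174 CPM at E13.5, 105, 146 and 178 at E14.5 and 281, 221 and 161 at E15.5. It had 256, 256 and 240.0 CPM at E16.5 and 308, 305 and 389 at P0. The E14.5 and E15.5 libraries overlapped, and that step was 0.63 ± 0.23 on the log2 scale (edgeR adjusted p = 0.0597). From E13.5 to P0 Timp3 rose by 1.17 ± 0.23 (adjusted p = 0.00103) without overlap.

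Timp4 (chr6:115241892-115252205) was the most variable TIMP within stages. It had 1.35, 1.63 and 0.134 CPM at E13.5, 6.36, 3.98 and 2.75 at E14.5 and 1.21, 3.16 and 2.78 at E15.5. It had 12.99, 6.86 and 5.48 CPM at E16.5 and 13.2, 30.7 and 11.2 at P0. It rose by 4.14 ± 0.78 on the log2 scale from E13.5 to P0 (edgeR adjusted p = 0.000736), and no step between neighbouring stages passed. Skeletal muscle markers (8 genes) had a summed CPM of 244.5 to 436.5 at E13.5, 243.6 to 1088 at E14.5, 1809.6 to 5182 at E15.5, and 12971 to 38092 and 5950 to 37103 at the last 2 stages. This sum also moved with stage. Timp4 and the sum put the 3 libraries in the same order at E16.5, and replicate 2 was highest for both at P0. At E13.5 Timp4 was lowest in replicate 3, where the sum was highest. At E14.5 it was highest in replicate 1, where the sum was lowest, and at E15.5 it was lowest in replicate 1, where the sum was highest. Sums of other lists matched Timp4 as well. Those of endothelium and of neutrophil markers had its order of libraries at E16.5 and at P0, but not at the earlier stages. The sum of choroid plexus and neural markers had it at E13.5 and E14.5, but not at the later stages. The parts of muscle and of these other cell types in the Timp4 values were not tested.

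Summed per length, MMP transcripts went from 215 ± 40.0 CPM per kb at E13.5 (mean ± SD, n = 3) and 209 ± 37.1 at E14.5 to 307 ± 18.3 at E15.5, with 495 ± 76.2 at E16.5 and then 719 ± 195 at P0. TIMP transcripts went from 73.5 ± 14.9 and 78.1 ± 17.7 to 148 ± 14.2, 193 ± 15.1 and 252 ± 68.6. The ratio of TIMP to MMP level was 0.347, 0.332 and 0.344 in the E13.5 libraries, 0.359, 0.353 and 0.401 at E14.5 and 0.568, 0.462 and 0.424 at E15.5. It was 0.376, 0.438 and 0.366 at E16.5 and 0.338, 0.305 and 0.414 at P0. The ratio was highest at E15.5, whose libraries lay above all those of E13.5, E14.5 and P0 and overlapped those of E16.5. Both sums rest on a few genes, which differ by stage. Mmp13 held 0.0230% of the MMP sum at E13.5, 5.34% at E15.5 and 21.5% at P0, and Mmp11 13.8%, 5.68% and 1.41%. Timp2 held 65.0% of the TIMP sum at E13.5 and 40.4% at P0, and Timp1 9.98% and 41.1%. These sums are of transcripts and say nothing of active enzyme. The summed ADAMTS level was 108 ± 18.3 CPM per kb at E13.5, 120 ± 19.7 at E15.5 and 92.1 ± 9.80 at P0, and the E15.5 libraries lay above those of P0 while those of E13.5 overlapped both.

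**Figure D5:**
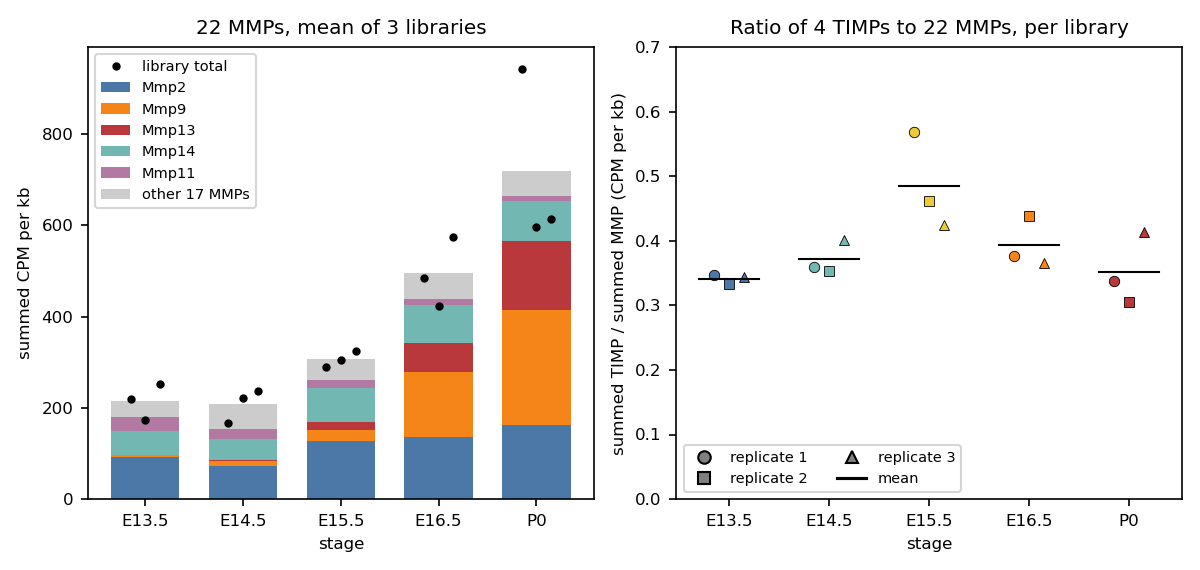
Left, summed CPM per kb of the 22 MMP genes by stage (bars, mean of 3 libraries, split into 5 genes and the rest) with the total of each library as points; right, the ratio of summed TIMP to summed MMP level in each library, with the mean as a bar. The MMP total goes from 215 at E13.5 to 719 at P0, and the ratio is highest at E15.5.

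Other genes of the pathway were read from lists chosen by function. Of 9 tested genes for activation and localisation of the proteases, 4 rose and 2 fell from E14.5 to E15.5, and 5 rose from E13.5 to P0 (edgeR, adjusted p under 0.05, read against the same shares of all genes as above). Plaur, the urokinase receptor, rose by 4.28 on the log2 scale over the whole span (adjusted p = 1.50e-06), and the proprotein convertases Pcsk6 and Furin by 1.86 (adjusted p = 6.57e-05) and 0.91 (adjusted p = 0.000626). Bsg, an inducer of MMPs, rose by 0.92 (adjusted p = 0.000934). Of 7 tested genes for other inhibitors and clearance receptors, 3 rose and 1 fell from E13.5 to P0. Among them Tfpi2 rose by 2.22 (adjusted p = 5.53e-05) and Serpine2 by 1.63 (adjusted p = 7.27e-05), while Lrp1, a receptor that clears several of these proteases, fell by 0.55 (adjusted p = 0.0133). Reck, a membrane-anchored MMP inhibitor, had -0.40 (adjusted p = 0.141). Of 12 tested metalloproteases of other families, 6 rose and 3 fell. Adam8 rose by 3.85 (adjusted p = 1.19e-05) and Adam12 by 1.43 (adjusted p = 0.00162), and Adam10 fell by 0.89 (adjusted p = 0.000200). Of 16 matrix substrates and partners, 8 rose and 3 fell over the span.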

How the data were processed

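The deposited table holds raw counts per gene, made by the authors, per the file headers, with featureCounts 2.0.1 from fragments on the reverse strand of GENCODE M18 genes. Per the submitters' processing notes the build was mm10 and the tools included cutadapt 3.4, FastQC 0.11.9, Bowtie2, HISAT2 2.2.1 and SAMtools 1.12. Fragments shared by genes that overlap on the same strand, or mapping to several places, were not counted, which lowers genes with such neighbours. Symbols and gene types came from GENCODE M21, in which 48 of the 50 genes had the same position.

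Counts were filtered with filterByExpr (minimum count 10, 22151 genes kept), scaled by TMM, and modelled by stage in edgeR 4.0.16 under R 4.3.3, all 15 libraries together (common BCV 0.332). The quasi-likelihood F test was applied to 5 contrasts between stages, with Benjamini-Hochberg adjustment over all tested genes and a threshold of 0.05. CPM used TMM-adjusted totals, and levels per kb the length of the deposited table. The floor of 3 counts per library sets the precision for low genes. The procedure was tested on simulated data.

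The genes, classes, marker lists and pathway lists were chosen with earlier results of these data known. Values per library were given for Mmp9, Mmp13, the TIMPs, the highest gene per length in each class, and in each contrast up to 5 called rises and 5 called falls with a mean of at least 1 CPM. Values given for other members, Mmp24 among them, and the promoter stretches shown were chosen after the values were seen. Alternatives were DESeq2 1.42.0, 2 other normalizations, 2 other filters, a block for the replicate number, only the 6 libraries of a contrast, and leaving out each library. Thinning was added after the data were seen. Values of 1 gene of the pathway lists are not reported here.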

Additional observations from a re-analysis of the deposited data

How the results depend on the processing

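The count of members called was computed for the 5 contrasts and for any change over the stages. None of the counts changed by more than 1.5 times with either other normalization, either other filter or thinning to the smallest total, which gave 0, 17, 3, 0 and 28 calls for the 5 contrasts in order and 32 over the stages. With only the 6 libraries of each contrast, E16.5 against E15.5 gave 0 calls, with 17 at an unadjusted p under 0.05. DESeq2 gave 1 call for E14.5 against E13.5, 8 for E16.5 against E15.5 and 1 for P0 against E16.5. Leaving out 1 library at a time gave 8 to 18 calls for E15.5 against E14.5, 0 to 3 for E16.5 against E15.5, 25 to 30 for P0 against E13.5, 0 for the other contrasts, and 30 to 35 over the stages. The causes of these shifts were not tested.

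For E15.5 against E14.5 the all-gene median on the log2 scale was 0.03 with TMM and 0.16 with upper-quartile normalization. No call on a member changed direction under any of the alternatives run. Timp3 from E14.5 to E15.5 passed with upper-quartile normalization, with a mean of at least 1 CPM and with DESeq2 (adjusted p = 0.0403, 0.0405 and 0.0313), and Mmp13 from E15.5 to E16.5 passed with DESeq2 (adjusted p = 0.0392). DESeq2 also called Mmp24, Mmp2, Mmp3 and Adamts16 from E14.5 to E15.5, and Mmp24 and Adamts3 over the stages. With no filter on low counts Mmp7 and Mmp10 were called from E13.5 to P0. With a mean of at least 1 CPM, Mmp8, Mmp3 and Adamts13 left the test.

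Same-numbered libraries did not deviate together in all pairs (correlations of -0.30 to 0.55), so the replicate numbers were not taken to pair the samples. With the replicate number as a block the counts were 0, 17, 2, 0 and 30, and 33 over the stages. From E14.5 to E15.5, 15 of the 17 were shared with the fit without the block, and Mmp24 and Adamts16 were gained. Over the stages Mmp24 was gained and Adamts17 lost. Mmp9 and Adamts5 from E14.5 to E15.5 and Adamtsl4 from E15.5 to E16.5 then had adjusted p of 0.0638, 0.0541 and 0.0552. Libraries numbered 3 correlated best with their own number in all 5 contrasts and those numbered 1 and 2 in none, a hint from the data and not from the design. Depth limits Mmp13 and Mmp3 at E13.5 and the 7 genes not tested.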
